A study of Homo sapiens with 4 samples.

Results

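FBP1 encodes fructose-1,6-bisphosphatase, an enzyme of gluconeogenesis, and was expressed from an introduced construct in breast cancer cells. It is described here with 5 other gluconeogenic enzyme genes (FBP2, PCK1, PCK2, PC and G6PC3) and 3 genes for mitochondrial transcription factors (TFB1M, TFB2M and TFAM). These 9 genes were taken by name from 18417 genes with a probe set annotated to a single gene. No filter on intensity was applied, and each of the 9 had 1 probe set, so that no choice between probe sets entered. RNA was measured on Affymetrix arrays in 4 groups of 1 array: MDA-MB231 cells expressing FBP1, MDA-MB231 control cells, Hs578T cells expressing FBP1 and Hs578T control cells. Both are established human cell lines, labelled as basal-like breast cancer. Both constructs of a line were grown in DMEM/F12 with serum and harvested while growing exponentially. The FBP1 cells were selected as stable clones, and the labels give neither the number of clones nor what the control cells carried. In bulk RNA, fewer cells expressing a gene and less of its RNA in each cell cannot be told apart.

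Gluconeogenesis makes glucose from lactate, amino acids and glycerol, chiefly in liver and kidney. Pyruvate carboxylase (PC) makes oxaloacetate in mitochondria, a phosphoenolpyruvate carboxykinase (PCK1 in the cytosol, PCK2 in mitochondria) makes phosphoenolpyruvate, and fructose-1,6-bisphosphatase (FBP1, with FBP2 as the muscle form) removes a phosphate from fructose-1,6-bisphosphate, opposing the phosphofructokinase step of glycolysis. Glucose-6-phosphatase releases free glucose, and G6PC3 is its widely expressed form. The mitochondrial genome is transcribed by its own polymerase with TFAM, which also packages mitochondrial DNA, and with TFB2M. TFB1M, a relative of TFB2M, acts mainly as a methyltransferase of mitochondrial ribosomal RNA. These 3 factors have been proposed as a link between FBP1 and mitochondrial function.

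Values are log2 intensities, so a difference of 1 is a 2-fold difference, and they compare one gene between arrays but not different genes. The arrays were alike as wholes, with medians over all probe sets of 7.83 to 7.86 and correlations across probe sets of r = 0.9962 between the MDA-MB231 arrays, r = 0.9942 between the Hs578T arrays and at most 0.9637 between lines. Over all genes, the size of the difference between FBP1 and control arrays had a median of 0.0906 in MDA-MB231 and 0.1245 in Hs578T, and 95% of genes lay within 0.3335 and 0.4773. Within each line there was 1 array a group and hence no replicate. The labelled cell type was set beside marker genes. VIM, a mesenchymal intermediate filament gene, lay at 13.71 to 13.72 on the 4 arrays. Of the other mesenchymal markers, ZEB1 lay at 10.95 to 11.14, SNAI2 at 13.17 to 14.07 and FN1 at 13.10 to 14.21. CDH2 had 7.7 and 7.4 on the MDA-MB231 arrays and 13.2 and 13.1 on the Hs578T arrays. The basal marker EGFR lay at 10.63 to 11.05. Of the basal keratin genes, KRT14 lay at 8.45 to 9.62 and KRT5 at 6.80 to 6.93, where the 25th percentile of probe set means was 6.16. Of the luminal markers, ESR1, the oestrogen receptor gene, lay at 6.64 to 6.80 and PGR, the progesterone receptor gene, at 5.61 to 6.36. The keratin gene KRT18 lay at 12.33 to 12.71, GATA3 at 8.12 to 9.05 and FOXA1 at 8.06 to 8.50. KRT8 had 13.02 and 13.10 on the MDA-MB231 arrays and 9.80 and 9.58 on the Hs578T arrays, and the epithelial adhesion gene EPCAM had 9.43 and 9.47 against 6.26 and 6.56. CDH1 had 7.90 and 7.64 on the MDA-MB231 arrays and 6.34 and 6.53 on the Hs578T arrays. ESR1, KRT18 and EPCAM had 2 single-gene probe sets each, and the values are those of the higher-mean one. Levels of different genes cannot be compared here, so these values do not assign the cells to a cell type.

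The introduced gene checks the labels. FBP1 had a log2 intensity of 13.07 in MDA-MB231 cells expressing FBP1 and 9.83 in MDA-MB231 control cells. In Hs578T cells expressing FBP1 it was 13.35, against 6.35 in Hs578T control cells. Both FBP1 arrays were thus high, the MDA-MB231 control lay between, and the Hs578T control lay near the 25th percentile. The difference was 3.24 in MDA-MB231 and 7.00 in Hs578T, and no other of the 18417 genes was as much higher in both lines. MDA-MB231 minus Hs578T was −0.28 between the FBP1 arrays and 3.48 between the control arrays, so the lines were close with the construct and far apart without it. The Hs578T control value was not shown to be above background, which leaves the size of the difference in that line uncertain.

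**Figure D1:**
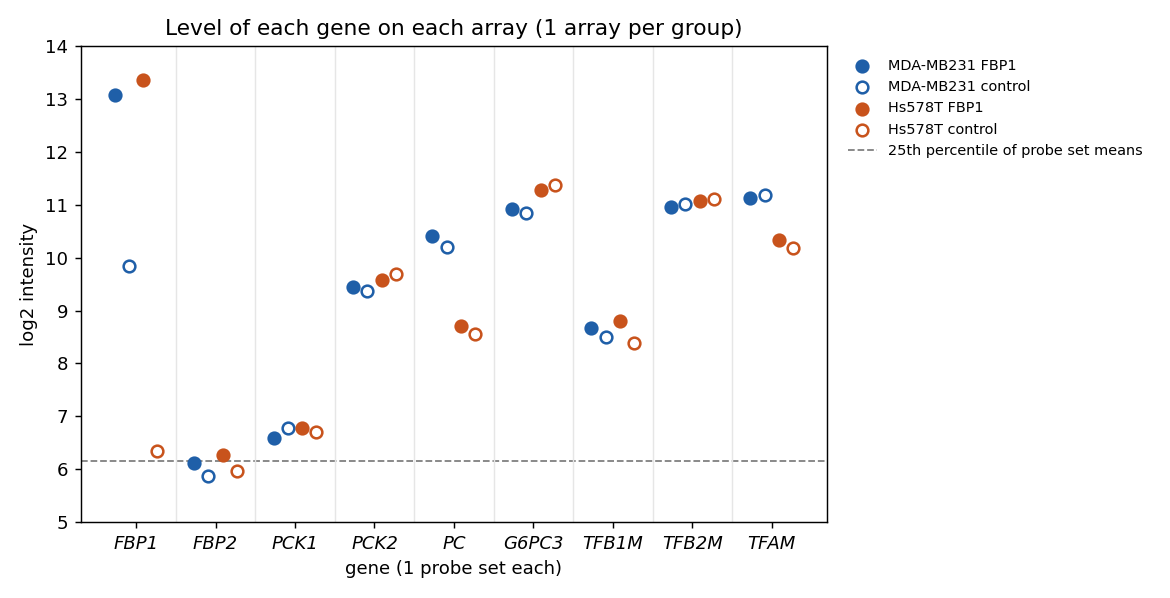
Log2 intensity (vertical axis) of each of the 9 genes on the 4 arrays, with filled points for FBP1 arrays and open points for control arrays. FBP1 lies above 13 on both FBP1 arrays and at 9.83 and 6.35 on the MDA-MB231 and Hs578T controls, while each of the other 8 genes spans at most 1.86 over the 4 arrays.

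At a size of 1.5-fold, 1 of the 9 genes, FBP1 itself, differed in each line, where the background was 0.69% of all genes in MDA-MB231 and 2.97% in Hs578T. The other 8 genes lay between −0.20 and 0.25 in MDA-MB231 and between −0.12 and 0.41 in Hs578T. Their medians were 0.0628 and 0.1147, beside −0.0039 and 0.0261 over all genes. FBP2, PC and TFB1M were above control in both lines, TFB2M was below it in both, and PCK1, PCK2, G6PC3 and TFAM had opposite signs in the lines. That is 3 of 8 above control in both, where 27.8% of all genes were, and 1 of 8 below it in both, where 23.3% were. Both FBP1 arrays lay above both control arrays for 3 of the 9 genes, where 9.82% of all genes had such an order. These were FBP2, TFB1M and FBP1 itself, whose place in the count follows from its being the introduced gene.

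With the 2 lines as the only replication (n = 2), a limma fit with terms for line and construct was run over all 18417 genes. It called 0 of them at an adjusted p under 0.05, a background of 0%, and its smallest adjusted p was 0.936. At an unadjusted p under 0.05 it gave 966 genes, or 5.25%. Among them were the introduced FBP1 and 2 of the other 8 genes described here, FBP2 and TFB1M. FBP1 had a mean difference of 5.12 with a standard error of 0.77 and a limma adjusted p of 0.936, so the fit did not call even the introduced gene, whose difference was unequal in the lines. An exact permutation within the 2 lines cannot give a two-sided p below 0.5.

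**Figure D2:**
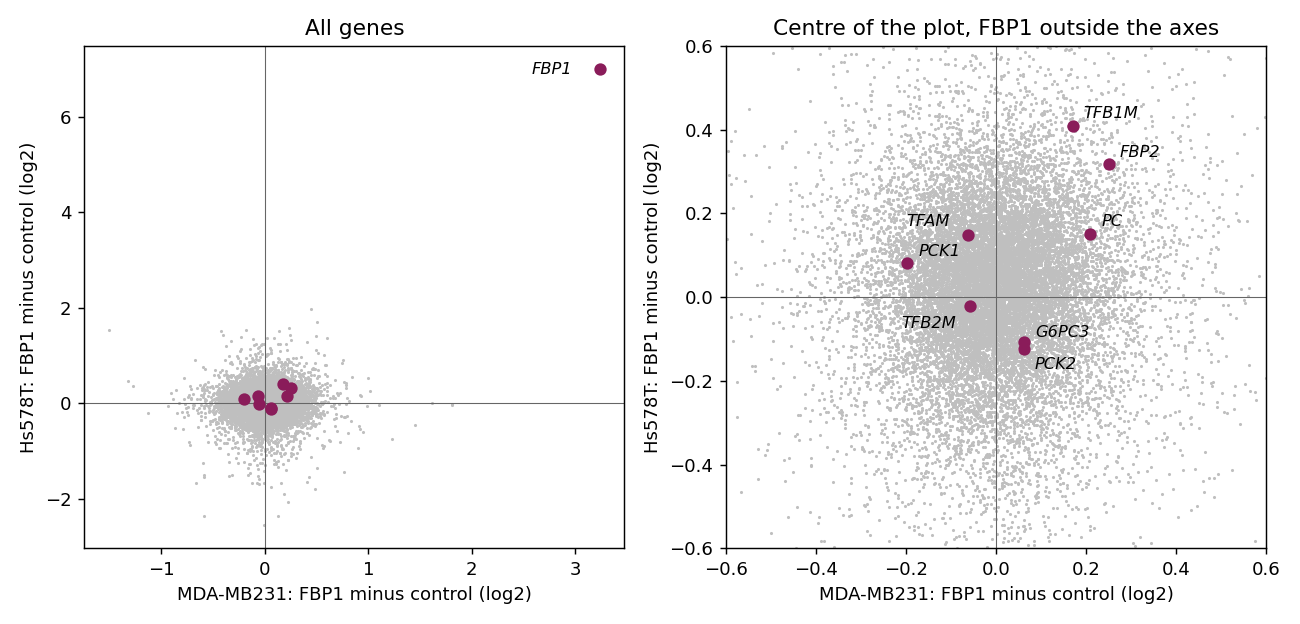
FBP1 minus control on the log2 scale in MDA-MB231 (horizontal) and in Hs578T (vertical), grey for all 18417 genes and purple for the 9 genes; the right panel enlarges the centre. FBP1 stands alone at 3.24 and 7.00, and the other 8 lie among the bulk of genes, with TFB1M and FBP2 toward its upper right edge.

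FBP2, the muscle isoenzyme of fructose-1,6-bisphosphatase, was dim throughout. It had log2 intensities of 6.12 in MDA-MB231 cells expressing FBP1 and 5.87 in MDA-MB231 control cells, and of 6.28 in Hs578T cells expressing FBP1 and 5.96 in Hs578T control cells. Both FBP1 arrays were above both controls, but only 1 of the 4 values reached the 25th percentile of probe set means. The differences were 0.25 and 0.32, and 155 genes (0.842%), FBP2 included, were at least as much higher in both lines. Over both lines the limma difference was 0.28 ± 0.11 (SE), with an adjusted p of 0.936. FBP1, similar in sequence, was far higher on the same 2 arrays, and its part in the FBP2 value was not tested.

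FBP2 and FBP1 are adjacent in the RefSeq annotation of chromosome 9, so the other neighbours with a probe set were read too. SLC71A2, on the far side of FBP2, differed by −0.12 in MDA-MB231 and −0.14 in Hs578T. On the other side, the aminopeptidase gene AOPEP differed by −0.02 and −0.16. The DNA repair gene FANCC, next to AOPEP, differed by −0.37 in MDA-MB231 and 0.37 in Hs578T. None of these 3 neighbours was above control in both lines, where 27.8% of all genes were, so the count is near that share.

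PC, whose product supplies oxaloacetate to gluconeogenesis and the citric acid cycle, was above control in both lines by a small amount. Its log2 intensity was 10.41 in MDA-MB231 cells expressing FBP1 and 10.20 in MDA-MB231 control cells. It was 8.70 in Hs578T cells expressing FBP1 and 8.55 in Hs578T control cells. The values fell in 2 pairs by line, and the differences by construct were 0.21 and 0.15 (limma 0.18 ± 0.10 SE, adjusted p = 0.939). In MDA-MB231, 84.2% of all genes had a smaller difference, and in Hs578T 58.1% did. At least as much higher in both lines were 496 genes (2.69%), PC included.

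The phosphoenolpyruvate carboxykinase genes showed no common direction. The cytosolic PCK1 had 6.59 in MDA-MB231 cells expressing FBP1 and 6.78 in MDA-MB231 control cells, and 6.78 in Hs578T cells expressing FBP1 and 6.70 in Hs578T control cells. All 4 values lay within 0.20 of each other, on a dim probe set. The mitochondrial PCK2 had 9.44 in MDA-MB231 cells expressing FBP1 and 9.37 in MDA-MB231 control cells, against 9.58 in Hs578T cells expressing FBP1 and 9.70 in Hs578T control cells. The limma differences were −0.06 ± 0.12 (SE) for PCK1 and −0.03 ± 0.11 (SE) for PCK2, with adjusted p-values of 0.985 and 0.991.

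G6PC3, the widely expressed glucose-6-phosphatase, likewise had differences of opposite sign. It had 10.91 in MDA-MB231 cells expressing FBP1 and 10.85 in MDA-MB231 control cells, and 11.27 in Hs578T cells expressing FBP1 and 11.38 in Hs578T control cells. The limma difference was −0.02 ± 0.09 (SE, adjusted p = 0.991). G6PC1, which encodes the liver and kidney enzyme, lay at 5.04 to 5.20 on the 4 arrays, under the 25th percentile level of 6.16.

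Of the 3 mitochondrial transcription factor genes, TFB1M was above control in both lines. It had a log2 intensity of 8.67 in MDA-MB231 cells expressing FBP1 and 8.50 in MDA-MB231 control cells. In Hs578T it had 8.79 in cells expressing FBP1 and 8.38 in control cells. Both FBP1 arrays were above both controls, so the groups did not overlap. The differences were 0.17, or 1.13-fold, and 0.41, or 1.33-fold, both under the 1.5-fold size. In MDA-MB231, 76.7% of all genes had a smaller difference, and in Hs578T 92.6% did. At least as much higher in both lines were 156 genes (0.847%), TFB1M included. The limma difference was 0.29 ± 0.11 (SE), with an unadjusted p of 0.0427 and an adjusted p of 0.936.

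TFB2M, which melts the promoter for the mitochondrial polymerase, had 10.95 in MDA-MB231 cells expressing FBP1 and 11.01 in MDA-MB231 control cells, and 11.08 in Hs578T cells expressing FBP1 and 11.10 in Hs578T control cells. All 4 values lay within 0.15 of each other, and the limma difference was −0.04 ± 0.09 (SE, adjusted p = 0.985). TFAM had 11.12 in MDA-MB231 cells expressing FBP1 and 11.19 in MDA-MB231 control cells. In Hs578T cells expressing FBP1 it had 10.33, against 10.18 in Hs578T control cells. Its limma difference was 0.04 ± 0.10 (SE, adjusted p = 0.986), and the larger separation was by line. The difference of TFB1M from TFB2M or TFAM in its response was not tested.

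The promoters of these 3 genes are shown because all are textbook targets of nuclear respiratory factor 1 (NRF1) or of the ETS factor GABP, while their values by construct were unlike. Each line gives the 250 bases before the annotated start, 5′ to 3′ on the gene's strand, from RefSeq on GRCh38.p14; capitals mark matches on either strand to GCNTGCGC (the core of the NRF1 motif, with N any base) and to CGGAAG (ETS).
TFB1M: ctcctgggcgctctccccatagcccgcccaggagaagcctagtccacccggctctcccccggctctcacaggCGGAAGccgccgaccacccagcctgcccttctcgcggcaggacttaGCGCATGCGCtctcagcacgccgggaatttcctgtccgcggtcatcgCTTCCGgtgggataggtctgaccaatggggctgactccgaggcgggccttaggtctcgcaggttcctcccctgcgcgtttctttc
TFB2M: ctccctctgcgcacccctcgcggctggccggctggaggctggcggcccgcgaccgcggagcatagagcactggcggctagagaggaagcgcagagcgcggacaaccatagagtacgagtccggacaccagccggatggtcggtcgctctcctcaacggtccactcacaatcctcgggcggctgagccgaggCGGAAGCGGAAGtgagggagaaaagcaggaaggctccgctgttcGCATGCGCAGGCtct
TFAM: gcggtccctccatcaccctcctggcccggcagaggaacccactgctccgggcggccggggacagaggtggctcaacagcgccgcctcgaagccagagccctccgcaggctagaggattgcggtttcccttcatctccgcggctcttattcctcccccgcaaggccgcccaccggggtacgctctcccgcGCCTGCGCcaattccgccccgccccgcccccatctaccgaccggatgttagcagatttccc
They lie at chr6:155314485-155314734 on the minus strand for TFB1M, chr1:246566262-246566511 on the minus strand for TFB2M and chr10:58385160-58385409 on the plus strand for TFAM. TFB1M held overlapping matches to GCNTGCGC that begin 132 and 130 bases before the start, and CGGAAG at 178 and 85 bases. TFB2M held overlapping matches to GCNTGCGC at 15 and 11 bases and CGGAAG at 59 and 53 bases. TFAM held GCNTGCGC at 61 bases and no CGGAAG in this window. Of 34788 promoter windows of the same length, 10.4% held GCNTGCGC and 16.5% held CGGAAG. A match describes the letters and is not a measured binding site.

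Transcripts of the factors that read such motifs were measured on the same arrays. NRF1 differed by −0.02 in MDA-MB231 and 0.01 in Hs578T. GABPA, the DNA-binding subunit of GABP, had 9.15 in MDA-MB231 cells expressing FBP1 and 9.44 in MDA-MB231 control cells, and 9.53 in Hs578T cells expressing FBP1 and 9.89 in Hs578T control cells. It was below control in both lines, at −0.30 and −0.36 (limma −0.33 ± 0.10 SE, unadjusted p = 0.0174, adjusted p = 0.936). GABPA had 2 single-gene probe sets, and the values are those of the higher-mean one. Of 9 regulators of mitochondrial biogenesis, limma called 0, with 1 at an unadjusted p under 0.05 (GABPA), 0 differed by 1.5-fold in either line, 2 were above control in both lines, and medians were −0.0237 and 0.0701. The next largest mean sizes on that list were those of the coactivator gene PPRC1 (0.03 and 0.39), the GABP subunit gene GABPB1 (−0.15 and 0.12) and the coactivator gene PPARGC1B (0.14 and 0.07).

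The wider machinery of mitochondrial transcription and DNA maintenance was read from a list of 22 genes. Limma called 0 of them by construct, with 0 at an unadjusted p under 0.05, 0 differed by 1.5-fold, and 7 were above and 5 below control in both lines. Medians were 0.0446 in MDA-MB231 and 0.0167 in Hs578T, beside −0.0039 and 0.0261 over all genes. POLRMT, the mitochondrial RNA polymerase gene, differed by 0.17 and −0.04, and TEFM, the elongation factor gene, by −0.18 and −0.11. The largest mean sizes were those of PRORP, the nuclease of mitochondrial RNase P (0.13 and 0.28), the termination factor genes MTERF1 (−0.09 and −0.23) and MTERF4 (0.10 and −0.20), and the mitochondrial exonuclease gene MGME1 (−0.18 and 0.11). At least as high as TFB1M were 2 of the 22 in MDA-MB231 and 0 in Hs578T. In both lines together it was 0 of the 22, beside 0.847% of all genes, TFB1M included. Among all genes, 76.7% in MDA-MB231 and 92.6% in Hs578T had a smaller difference of either sign than TFB1M. These last shares ignore sign and are not a background for the counts by line. Genes encoded in mitochondrial DNA were not analysed here.

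Enzymes that share fructose bisphosphates with FBP1 all lay within 0.35 of control. Of 10 measured genes, limma called 0, with 1 at an unadjusted p under 0.05 (PFKFB4), 0 differed by 1.5-fold, 2 were above and 3 below control in both lines, and medians were 0.016 and −0.0716. PFKFB4, whose product makes and breaks fructose 2,6-bisphosphate, an inhibitor of FBP1, had 9.15 in MDA-MB231 cells expressing FBP1 and 9.49 in MDA-MB231 control cells, and 8.30 in Hs578T cells expressing FBP1 and 8.54 in Hs578T control cells. It lay below control in both lines (−0.35 and −0.24, limma unadjusted p = 0.0305, adjusted p = 0.936). TIGAR, a fructose bisphosphatase-like p53 target, differed by −0.14 and −0.30. ALDOC, an aldolase gene, differed by −0.28 and −0.02, and PFKFB1, under the 25th percentile level on all 4 arrays, by −0.23 and 0.09. The phosphofructokinase genes PFKL, PFKM and PFKP differed by 0.05, 0.11 and 0.02 in MDA-MB231 and by 0.05, −0.09 and 0.18 in Hs578T.

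Other genes of gluconeogenesis and its transport steps were read too, beside a 1.5-fold background of 0.69% of all genes in MDA-MB231 and 2.97% in Hs578T. Of 16 measured, limma called 0, with 0 at an unadjusted p under 0.05, 0 differed by 1.5-fold, 5 were above and 4 below control in both lines, and medians were 0.015 and 0.0313. The dicarboxylate carrier gene SLC25A10 differed by 0.11 in MDA-MB231 and 0.47 in Hs578T (limma adjusted p = 0.936). In Hs578T, 94.9% of all genes had a smaller difference than SLC25A10. SLC37A4, the glucose-6-phosphate transporter gene, differed by 0.07 and 0.19, GPT, an alanine aminotransferase gene, by −0.07 and 0.20, and G6PC2 by −0.26 and −0.03, the last on a probe set under the 25th percentile level on all 4 arrays. Of 10 measured regulators of gluconeogenesis, limma called 0, with 0 at an unadjusted p under 0.05, and 0 differed by 1.5-fold, with medians of 0.0043 and −0.0637. Among them were the lipid-sensing receptor gene PPARA (0.23 and −0.28), the glucocorticoid receptor gene NR3C1 (−0.11 and −0.23), the CREB coactivator gene CRTC2 (−0.16 and −0.15) and KLF15 (0.21 and 0.06).

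**Figure D3:**
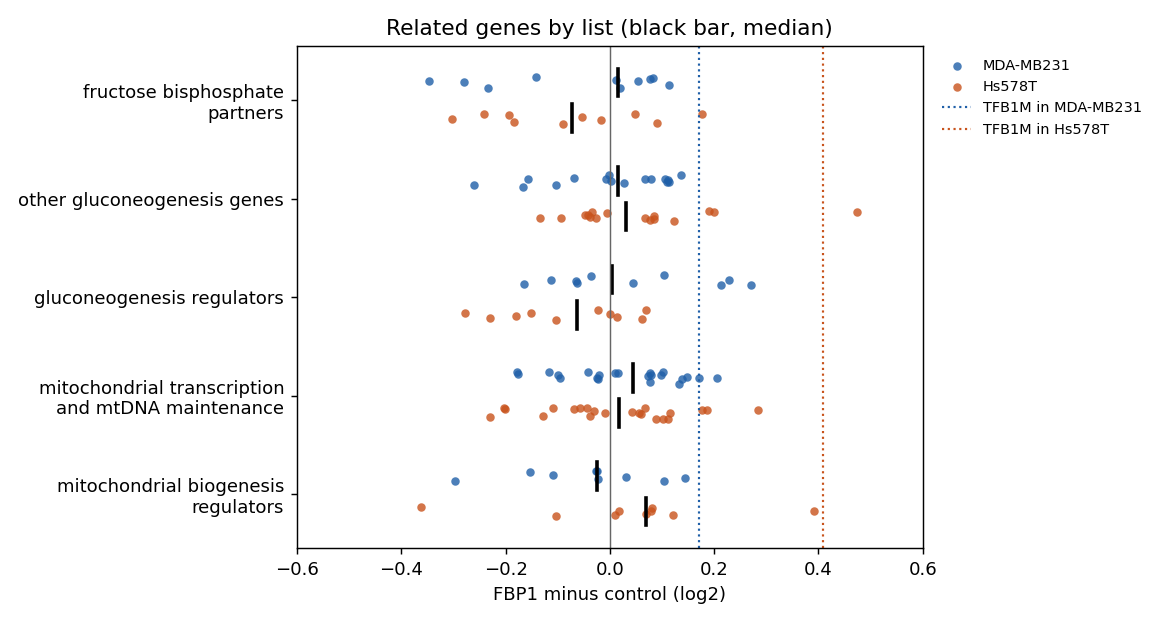
FBP1 minus control (log2, horizontal) for each measured gene of the 5 lists, blue for MDA-MB231 and orange for Hs578T, with black bars at medians and dotted lines at the TFB1M values of 0.17 and 0.41. Most points lie left of the TFB1M line of their colour, as most of all genes would, and none differs by 1.5-fold.

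The cell lines were then compared with each other, and PC and TFAM were higher in MDA-MB231 while G6PC3 was higher in Hs578T. Each line had 1 FBP1 array and 1 control array, so the 2 constructs were its only replication. The limma fit called 3 of the 9 genes between MDA-MB231 and Hs578T, where 36% of all genes were called. Of these, 2 were higher in MDA-MB231, where 19% of all genes were called that way, and 1 was higher in Hs578T, where 16.9% were. PC was higher in MDA-MB231 by 1.71 between FBP1 arrays (3.28-fold) and by 1.65 between control arrays (3.15-fold). The fit gave 1.68 ± 0.10 (SE), with an adjusted p of 9.82e-05. TFAM was higher in MDA-MB231 by 0.79 between FBP1 arrays and 1.00 between control arrays, and the fit gave 0.90 ± 0.10 (SE, adjusted p = 0.00113). G6PC3 was lower in MDA-MB231, at −0.36 between FBP1 arrays and −0.53 between control arrays (fit −0.44 ± 0.09 SE, adjusted p = 0.0129). For PC, TFAM and G6PC3 the line difference thus had the same sign on both pairs of arrays. So it had for FBP2, PCK2 and TFB2M, which were not called.

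FBP1 itself was not called between the lines (1.60 ± 0.77 SE, limma adjusted p = 0.166). The additive fit averages the differences of the FBP1 arrays (−0.28) and the control arrays (3.48), and their disagreement enlarges its standard error. For PC, with a difference of 1.68, the standard error was 0.10. PCK2 stood at −0.14 between FBP1 arrays and −0.33 between control arrays (adjusted p = 0.151). TFB1M stood at −0.12 between FBP1 arrays and 0.12 between control arrays (fit −0.00 ± 0.11 SE, adjusted p = 0.996). FBP2, PCK1 and TFB2M differed by −0.12, −0.06 and −0.11 in the fit, with adjusted p-values of 0.430, 0.748 and 0.421.

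**Figure D4:**
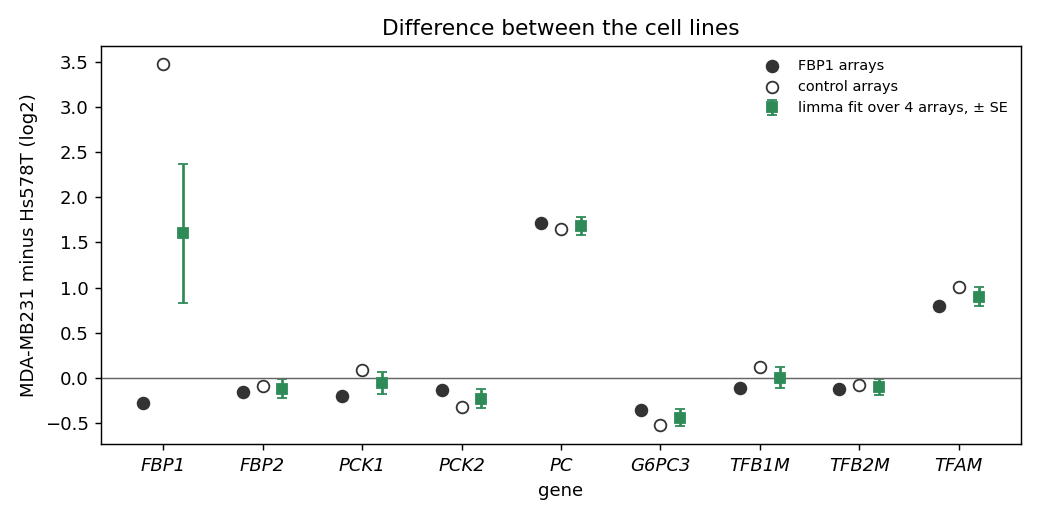
MDA-MB231 minus Hs578T (log2, vertical) for each of the 9 genes, with filled points between FBP1 arrays, open points between control arrays and green squares for the limma fit with standard errors. PC, at 1.71 and 1.65, and TFAM, at 0.79 and 1.00, are higher in MDA-MB231, and for FBP1 the points lie at −0.28 and 3.48.

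Related genes were compared between the lines too. The background over all genes was 36% called, with 19% higher in MDA-MB231 and 16.9% higher in Hs578T. All 7 called genes among the 10 fructose bisphosphate enzymes were higher in MDA-MB231, led by ALDOC (1.35, limma adjusted p = 0.000388), PFKFB4 (0.90, 0.00128) and PFKFB2 (0.87, 0.00222). Of the 22 mitochondrial transcription and maintenance genes, 10 were called, 8 higher in MDA-MB231, among them the helicase gene TWNK (0.89, adjusted p = 0.0013), and 2 higher in Hs578T, TOP1MT and NSUN4. The coactivator gene PPARGC1A was higher in MDA-MB231 by 1.19 (adjusted p = 0.000528), and SLC37A4 by 0.95 (adjusted p = 0.00102). Among other gluconeogenesis genes 5 of 16 were called, among regulators of gluconeogenesis 4 of 10 and among regulators of biogenesis 5 of 9, each beside the background of 36%.

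The genes whose profiles over the 4 arrays lay nearest to those of FBP1 and TFB1M were listed among 15946 genes above the 25th percentile, by Euclidean distance between centred log2 values. No gene came near FBP1: the nearest, the aldehyde oxidase gene AOX1, was 4.20 away, with differences of 0.45 in MDA-MB231 and 1.96 in Hs578T. SLAMF7, CMKLR1, HAS2 and CCBE1 followed, at 4.30 to 4.66. Around TFB1M many genes were close. The nearest were TNIK, a kinase gene (distance 0.0187, differences of 0.15 and 0.43), and LEFTY1 (0.0235, 0.19 and 0.39), followed by PIWIL4, ABHD1 and LGALS4 at 0.0274 to 0.0344. With 4 arrays, such distances describe these arrays only.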

How the data were processed

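The table the authors deposited gave 33297 probe sets on 4 arrays, 1 per group, as log2 values, a scale read from their range (2.40 to 14.81). Affymetrix Expression Console 1.1.2800.28061 was used, per the submitters' processing notes (normalization: not given in the sources used here). Scaling between arrays would hide a change in total RNA. By the platform annotation, 19460 probe sets had 1 gene; only these entered, the highest-mean one per gene (18417 genes), unfiltered. Samples were grouped by the labels' line and construct. limma 3.58.1 in R 4.3.3 fitted line and construct with an intensity trend (1 residual degree of freedom, prior 5.09) and Benjamini-Hochberg adjustment over all genes, called at 0.05. Its p-values for construct and for line rest on the same residual, the disagreement of the construct difference between the lines. That residual is drawn toward a spread shared by genes of like intensity. With prior degrees of freedom of 5.09 against 1, the shared spread carries most of the weight, also in the standard errors. Neither kind of p-value measures the spread between cultures, and the number of arrays limits precision. Tested on simulated data (18417 genes, with 50 altered alike in both lines at each size), this fit found 16% of those at 0.5 log2 and 98% of those at 1, with 20 false calls. The altered genes included sizes of 2 and 4 log2, all found, and such calls ease the adjusted threshold for the rest. The data themselves gave 0 calls by construct. Changes unequal between the lines, as for FBP1, were not simulated. These shares, and the number of false calls among unaltered genes, thus do not carry over to the genes measured here. Named genes are the 9, nearest profiles, neighbours of FBP1, up to 4 per list by mean size and members needed to describe it. Alternatives covered scaling, probe set choice, filter, variance prior, block and fold size. Members and lists were chosen with earlier results of these data known.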

Additional observations from a re-analysis of the deposited data

Results flagged for a closer look

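For 4 genes the difference between FBP1 and control arrays had opposite signs in the lines, and with 1 array per group the difference between lines was not tested. Hs578T minus MDA-MB231, it was 0.278 for PCK1, −0.186 for PCK2, −0.171 for G6PC3 and 0.209 for TFAM (log2). Each single difference was at most 0.20 in size, and 8966 of all 18417 genes had opposite signs.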

How the results depend on the processing

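Each of the 9 genes kept its sign by line, its sign over both lines and its side of the threshold under every alternative run for it. These were quantile normalization, median centring, the mean or the lowest-mean probe set, and, for the fits, the 25th percentile filter, a variance prior without a trend and, for the construct, no block for the cell line. FBP2 did not pass that filter, so 8 of the 9 were fitted there. Each gene has 1 probe set, so probe set choice moved only the fit. TFB1M ranged from 0.1708 to 0.1828 in MDA-MB231 and from 0.3988 to 0.4101 in Hs578T, with adjusted p of 0.920 to 1. PC between lines ranged from 1.6609 to 1.6829. The construct called 0 genes in every fit, with a smallest adjusted p of 0.920, and the lines 6282 to 6623. The fit paired each FBP1 array with the control of its cell line; the labels give no replicate numbers, so no other pairing was run. Leaving out an array leaves a line without a comparison, and was not run. With 1 residual degree of freedom, a missed call does not show that a gene did not differ.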

Other observations

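Marker lists were read beside the construct, and limma called 0 of their genes at an adjusted p under 0.05, with 0 at an unadjusted p under 0.05. Of the basal epithelium markers, 3 were measured, with median differences of −0.1296 in MDA-MB231 and 0.2066 in Hs578T; the keratin gene KRT14, at 0.77 in Hs578T, was the 1 marker past 1.5-fold. Medians were 0.0782 and 0.0024 for 5 mesenchymal markers and 0.0149 and 0.1304 for 8 luminal markers. For 6 markers of hepatocytes or kidney tubule, the tissues where gluconeogenesis is high, they were −0.125 and 0.0638.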
